A study of Mus musculus with 3 samples.

Results

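*Rora* and 9 core genes of the circadian clock (*Clock*, *Arntl*, *Per1*, *Per2*, *Per3*, *Cry1*, *Cry2*, *Nr1d1* and *Nr1d2*) were followed in the maxillary process, the facial prominence that forms the upper jaw. The genes were chosen by name: *Rora* is a gene the study names, and the others are the core clock genes whose loops it belongs to. All 10 symbols matched 1 identifier each among the 55401 identifiers in the count data. RNA came from maxillary processes of E10.5 mouse embryos of the genotype Wnt1cre; Rosa26Dlx2/- (the OE group, with 3 libraries named replicates 1, 2 and 3 here, an order that follows no numbering of the study). In these embryos a *Dlx2* transgene with a 3xFlag tag and a CAG promoter, at the *Rosa26* locus behind a loxP-flanked stop, is opened by Cre under *Wnt1* control, which switches it on in neural crest cells and their descendants. The dissected tissue also holds epithelium, vessels and blood. Wild-type libraries were not analysed here. There was 1 group, so no test between genotypes was made, and nothing below says whether a clock gene responds to *Dlx2*.

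The clock is a loop of transcription and translation that runs with a period of about a day in most cells of the adult. CLOCK and BMAL1 (the product of *Arntl*) bind together to E-boxes and drive the *Per* and *Cry* genes, whose proteins return to the nucleus and block them. In a second loop ROR proteins such as RORA activate, and REV-ERB proteins (the products of *Nr1d1* and *Nr1d2*) repress, the transcription of *Arntl* through shared ROR response elements. Since transcripts of this loop can change with the hour, the hour at which each embryo was taken can matter for these genes. The study counts stages from noon of the day of the vaginal plug, and the hour of collection of each sample is not given in the sources used here. Nor is the number of embryos or litters behind each RNA sample. The labels call the RNA samples independent, and the spread between them may be biological or technical.

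The libraries held between 35351031 and 40057435 counts on genes, so that 3 counts, the limit that a count of 0 allows, corresponded to 0.0777 to 0.0843 counts per 1000000 counts on genes (CPM). All 10 genes lay far above this limit in every library, from 60 counts for *Nr1d1* in replicate 2 to 1608 counts for *Cry1* in replicate 1. *Dlx2* was at 235, 201 and 183 CPM in replicates 1, 2 and 3, without a wild-type value beside it. The tissue label was met by its markers: all 10 facial neural crest mesenchyme markers had at least 10 counts in each library, with summed levels of 2080, 2216 and 2815 CPM. The libraries were not alike in other respects. Replicate 1 expressed *Xist* and had 0 counts on 4 Y-linked genes, while replicates 2 and 3 expressed the Y-linked genes and had *Xist* at 0.309 and 0.558 CPM. Summed levels of 9 neuron markers were 273, 24.3 and 35.9 CPM, with 9 of 9 highest in replicate 1 and none at 0. Those of 7 eye and forebrain markers were 29.9, 165 and 156 CPM, with none highest in replicate 1. Those of 6 pigment cell markers were 2.49, 12.9 and 98.2 CPM, with 5 highest in replicate 3 and *Mlana* at 3 counts or fewer throughout. Summed markers of epithelium were at 302, 211 and 237 CPM, of endothelium at 218, 236 and 140, of macrophages at 16.8, 21.1 and 18.7, and of erythroid cells at 2101, 3938 and 4883 CPM. In replicate 3, genes with much exonic sequence were low in comparison with the other libraries, as described below. In bulk tissue, fewer cells of a type and less RNA per cell cannot be told apart.

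The promoter sequences of the loops are shown first, because the clock genes are classed by the elements that drive them. RefSeq promoter windows on GRCm38.p6 (250 bases before to 50 after an annotated start) were found for 9 of the 10 genes, in 13 windows. *Per2* is not among them. The windows below are those of *Rora* and of the 4 genes in which several of the searched motifs fell within 1 window or 1 motif fell repeatedly, written 5′ to 3′ on the gene's strand, with the searched motifs in capitals.
*Rora* (chr9:68653536-68653835, plus strand): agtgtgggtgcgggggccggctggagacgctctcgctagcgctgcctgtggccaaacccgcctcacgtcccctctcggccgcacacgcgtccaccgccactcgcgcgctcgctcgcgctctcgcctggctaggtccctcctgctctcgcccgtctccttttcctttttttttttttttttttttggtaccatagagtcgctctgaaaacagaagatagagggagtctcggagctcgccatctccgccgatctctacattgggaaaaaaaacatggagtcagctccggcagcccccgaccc
*Arntl* (chr7:113207261-113207560, plus strand): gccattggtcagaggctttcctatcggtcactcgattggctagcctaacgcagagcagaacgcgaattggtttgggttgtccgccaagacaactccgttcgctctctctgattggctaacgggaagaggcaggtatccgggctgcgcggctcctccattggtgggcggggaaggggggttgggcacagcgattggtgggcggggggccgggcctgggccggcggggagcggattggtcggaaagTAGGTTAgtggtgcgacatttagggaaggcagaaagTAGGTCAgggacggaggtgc
*Cry1* (chr10:85185005-85185304, minus strand): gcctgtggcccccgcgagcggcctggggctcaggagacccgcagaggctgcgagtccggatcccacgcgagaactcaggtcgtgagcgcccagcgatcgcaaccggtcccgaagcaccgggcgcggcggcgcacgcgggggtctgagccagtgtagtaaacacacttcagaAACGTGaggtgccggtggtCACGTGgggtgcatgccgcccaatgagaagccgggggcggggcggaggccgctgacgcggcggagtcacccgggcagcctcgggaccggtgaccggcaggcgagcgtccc
*Per1* (chr11:69098699-69098998, plus strand): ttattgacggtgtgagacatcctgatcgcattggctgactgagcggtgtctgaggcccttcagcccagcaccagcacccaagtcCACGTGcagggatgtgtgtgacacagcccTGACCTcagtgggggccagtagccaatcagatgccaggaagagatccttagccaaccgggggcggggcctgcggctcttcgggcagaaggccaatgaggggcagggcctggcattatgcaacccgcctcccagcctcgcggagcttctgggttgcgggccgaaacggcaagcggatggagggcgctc
*Per3* (chr4:151044616-151044915, minus strand): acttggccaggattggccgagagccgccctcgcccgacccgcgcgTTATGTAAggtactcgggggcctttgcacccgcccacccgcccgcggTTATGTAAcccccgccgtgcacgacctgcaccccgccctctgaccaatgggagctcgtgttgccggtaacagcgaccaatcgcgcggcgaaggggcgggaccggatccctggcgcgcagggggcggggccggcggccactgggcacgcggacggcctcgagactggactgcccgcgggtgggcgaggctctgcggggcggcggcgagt

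Both strands were searched for the E-box CACGTG, its variant CACGTT, the ROR core site AGGTCA, the longer ROR site TAGGTNA, the D-box TTATGTAA and the cAMP response element TGACGTCA. The letters of the longer ROR site were settled on after the *Arntl* window had been seen, and a TAGGTCA counts as both a core site and a longer site. *Cry1* held an E-box 60 bases before its start and the variant 79 bases before it. *Per1* held an E-box at -166 and a core site, on the opposite strand, at -137. *Arntl*, the classical ROR target, held TAGGTTA at -6 and TAGGTCA at 30. *Per3* held the D-box at -205 and again at -158. Single matches not printed here were the E-box variant in *Cry2* and *Nr1d1*, and a core site in *Nr1d2* and *Clock*. The *Rora* window held none of these letters, and the cAMP response element was in none of the 13 windows. Of all 32851 windows of this length, 7.15% held the E-box, 4.68% its variant, 16.3% the core site, 8.29% the longer ROR site, 0.938% the D-box and 1.79% the cAMP response element. A match describes the letters of the window and was not tested for binding or activity in this tissue.

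*Clock* and *Arntl* encode the activators. *Clock* (ENSMUSG00000029238, chromosome 5, 76209868 to 76304792, minus strand) had 971, 798 and 438 counts, or 25.2, 22.4 and 11.6 CPM, in replicates 1, 2 and 3, a mean of 19.7 ± 7.15 CPM (SD, n = 3). Replicates 1 and 2 differed little, though beyond counting noise (adjusted p = 0.0341 without replicate 3), and replicate 3 was lowest, 2.16-fold under the highest, a range beyond counting noise (chi-square test of the 3 counts against the scaled library sizes, Benjamini-Hochberg adjusted p = 1.04e-42). *Arntl* (ENSMUSG00000055116, chromosome 7, 113207465 to 113314126, plus strand) had 274, 322 and 216 counts, or 7.10, 9.05 and 5.73 CPM, a mean of 7.29 ± 1.67 CPM (SD, n = 3). It was highest in replicate 2 and lowest in replicate 3, and its 1.58-fold range was also beyond counting noise (chi-square adjusted p = 1.52e-06). The partners thus differed in which library was highest.

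The *Per* genes encode repressors that enter the nucleus in complexes with CRY. *Per1* (ENSMUSG00000020893, chromosome 11, 69095217 to 69109960, plus strand) was the steadiest of the 10 genes, with 1151, 1033 and 1207 counts, or 29.8, 29.0 and 32.0 CPM, a mean of 30.3 ± 1.56 CPM (SD, n = 3). Its libraries differed by at most 1.10-fold, which did not exceed counting noise (chi-square adjusted p = 0.0614). The call was near the threshold, with an adjusted p of 0.024 under DESeq2 size factors and of 0.0286 without replicate 1. *Per2* (ENSMUSG00000055866, chromosome 1, 91415982 to 91459324, minus strand) had 183, 181 and 71 counts, or 4.74, 5.09 and 1.89 CPM, a mean of 3.90 ± 1.76 CPM (SD, n = 3). Replicates 1 and 2 were nearly equal (chi-square adjusted p = 0.611 without replicate 3), and replicate 3, with a counting interval of 1.47 to 2.38 CPM (exact Poisson, 95%), was 2.7-fold under the highest, the widest range among the 10 genes (adjusted p = 3.06e-13). *Per3* (ENSMUSG00000028957, chromosome 4, 151003652 to 151044665, minus strand) had 524, 378 and 319 counts, or 13.6, 10.6 and 8.47 CPM, a mean of 10.9 ± 2.57 CPM (SD, n = 3). Each of its libraries stood apart from the others by its counting interval, over a 1.60-fold range (chi-square adjusted p = 2.07e-10). Intervals of this kind cover counting error only, since reads amplified by PCR are not independent molecules.

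The *Cry* genes encode the stronger repressors of CLOCK and BMAL1. *Cry1* (ENSMUSG00000020038, chromosome 10, 85131700 to 85185064, minus strand) had 1608, 1251 and 940 counts, or 41.7, 35.1 and 24.9 CPM, a mean of 33.9 ± 8.42 CPM (SD, n = 3). It was highest in replicate 1 and lowest in replicate 3, over a 1.67-fold range beyond counting noise (chi-square adjusted p = 1.09e-34). *Cry2* (ENSMUSG00000068742, chromosome 2, 92403646 to 92434043, minus strand) ran the other way, with 855, 809 and 977 counts, or 22.1, 22.7 and 25.9 CPM, a mean of 23.6 ± 2.04 CPM (SD, n = 3). Its range was only 1.17-fold, past counting noise (chi-square adjusted p = 0.00187) and no longer so without replicate 3 (0.696) or when libraries were scaled by total counts (0.415). *Cry2* shares 295 of its exonic bases (4.67%) with the opposite-strand gene *D930015M05Rik*, which had at most 9 counts.

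*Nr1d1* and *Nr1d2*, the REV-ERB genes, are themselves E-box targets and repress *Arntl*. *Nr1d1* (ENSMUSG00000020889, chromosome 11, 98767932 to 98775333, minus strand) was the lowest of the 10 genes in mean CPM, with 93, 60 and 87 counts, or 2.41, 1.69 and 2.31 CPM, a mean of 2.14 ± 0.392 CPM (SD, n = 3). The counting intervals of its 3 libraries overlapped, and the 1.43-fold range did not exceed counting noise (chi-square adjusted p = 0.0868). *Nr1d1* shares 263 exonic bases (8.55%) with *Thra*, a thyroid hormone receptor gene on the opposite strand that had 854, 741 and 881 counts. The library kit does not mark strand, so reads there cannot be told apart between the genes. The 8.55% is a share of bases and not of reads, and how many of the *Nr1d1* counts it touches was not tested, so the level of *Nr1d1* is uncertain. *Nr1d2* (ENSMUSG00000021775, chromosome 14, 18204054 to 18239127, minus strand) had 434, 314 and 170 counts, or 11.2, 8.82 and 4.51 CPM, a mean of 8.19 ± 3.41 CPM (SD, n = 3). Unlike its paralogue it was lowest in replicate 3, which lay 2.49-fold under replicate 1, and it had a range beyond counting noise (chi-square adjusted p = 1.18e-23).

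*Rora* (ENSMUSG00000032238, chromosome 9, 68653786 to 69388246, plus strand) encodes an orphan nuclear receptor that activates *Arntl* and has roles outside the clock in the cerebellum and in immune cells. It is the longest gene of the set, spanning 734.5 kb with 13071 exonic bases, of which 1569 are coding. It had 107, 69 and 95 counts, or 2.77, 1.94 and 2.52 CPM, a mean of 2.41 ± 0.428 CPM (SD, n = 3). The counting intervals were 2.27 to 3.35, 1.51 to 2.45 and 2.04 to 3.08 CPM (exact Poisson, 95%) and overlapped, with replicate 2 lowest. The 1.43-fold range did not exceed counting noise at an adjusted p of 0.0751 (chi-square test). That call was close to the threshold: the adjusted p was 0.0416 without replicate 3, which sets replicate 1 against replicate 2 alone, and 0.0352 with scaling by total counts. *Gm15511*, which shares 82 exonic bases with *Rora* on the opposite strand, had 0 counts in every library.

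**Figure D1:**
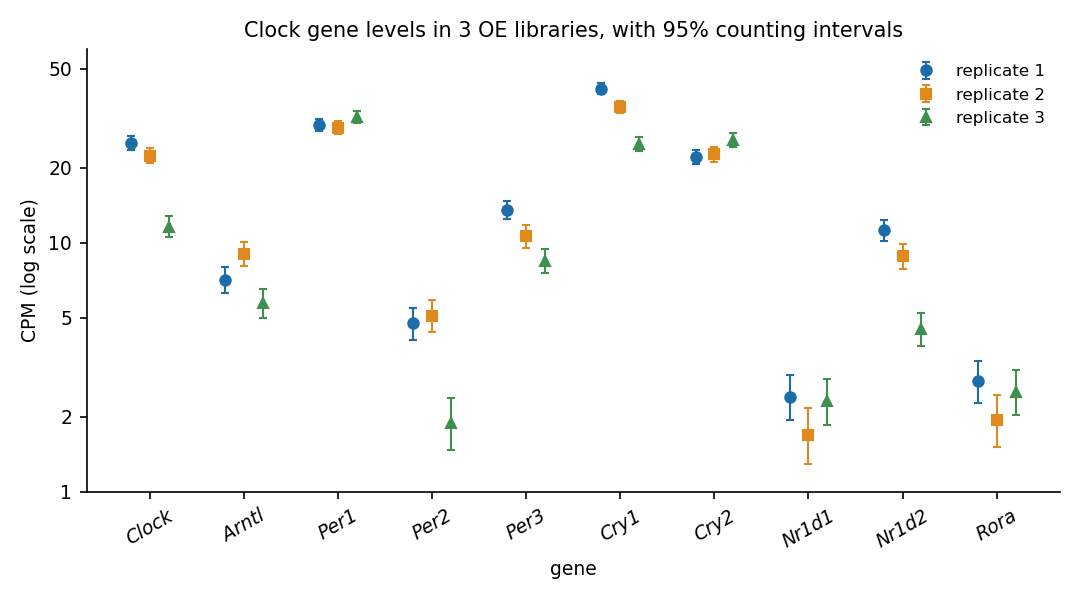
CPM (log scale) of the 10 clock genes in the 3 OE libraries, with 1 marker shape per replicate and bars for the exact 95% Poisson counting interval. *Clock*, *Per2* and *Nr1d2* are 2.16-, 2.7- and 2.49-fold lower in replicate 3 than in their highest library, *Per1* differs by at most 1.10-fold, and the intervals of *Rora* and *Nr1d1* overlap between libraries.

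Levels of different genes were compared per exonic length, as CPM per kilobase of exonic sequence (RPKM, mean ± SD, n = 3). *Cry1* was highest at 10.2 ± 2.52 RPKM, followed by *Per1* at 5.38 ± 0.278 and *Cry2* at 3.73 ± 0.322 RPKM. These 3 repressors held places 1, 2 and 3 in each library, and each stood apart from the next gene in the order without overlap of the libraries. Below them came a middle group in which each gene overlapped the next: *Nr1d2* at 1.52 ± 0.630, *Clock* at 1.44 ± 0.521, *Per3* at 1.13 ± 0.267, *Arntl* at 0.970 ± 0.221, *Nr1d1* at 0.694 ± 0.128 and *Per2* at 0.667 ± 0.30 RPKM. *Rora* was last in each library, at 0.212, 0.148 and 0.193 RPKM (mean 0.184 ± 0.0327). The mean of *Per2*, the next gene up, was 3.61-fold higher, and its libraries did not overlap with those of *Rora*. Of the 45 pairs of genes, 34 did not overlap. With 3 libraries an exact sign test of a pair cannot go below p = 0.25, two-sided, so no test was made of the order.

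The place of *Rora* depended on the length used. *Rora* has long untranslated exons, and per coding length it was at 1.54 RPKM and in place 8, above *Nr1d1* and *Per2*, while per length of the longest transcript it was last again at 0.222 RPKM. *Cry1* stayed first in mean RPKM under all 3 lengths, and *Per1* and *Cry2* changed places with each other per coding length.

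**Figure D2:**
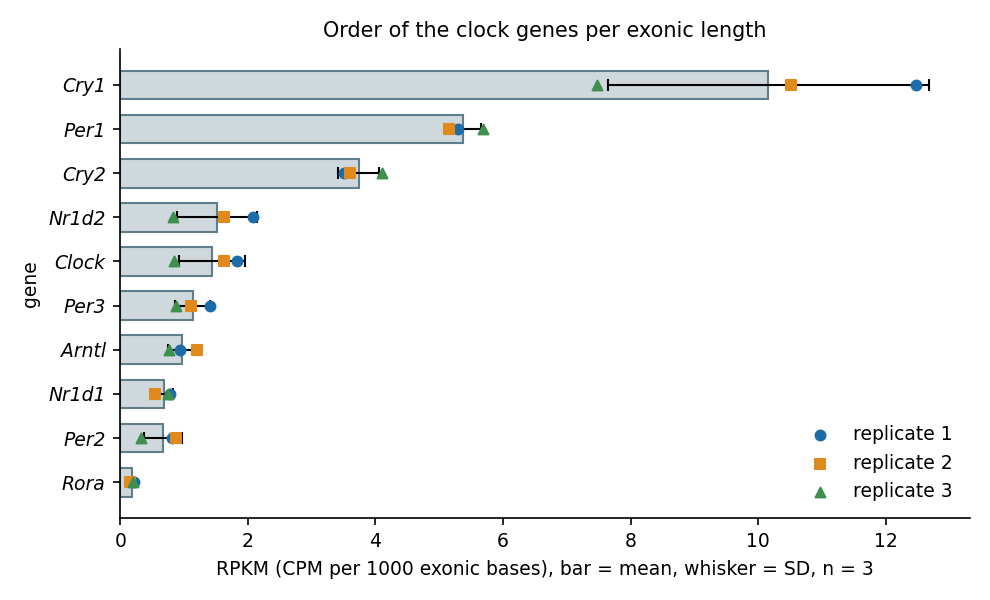
RPKM of the 10 clock genes in the 3 OE libraries, ordered by mean, with points for libraries, bars from 0 for the mean and whiskers of 1 SD. *Cry1*, *Per1* and *Cry2* lie at means of 10.2, 5.38 and 3.73 RPKM, the 6 genes from *Nr1d2* to *Per2* overlap their neighbours, and *Rora* is lowest at 0.184 RPKM.

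In summed RNA the repressor arm, which counts more genes here, was far more abundant than the activator arm. The summed level of *Per1*, *Per2*, *Per3*, *Cry1* and *Cry2* was 23.5, 21.2 and 18.5 RPKM in replicates 1, 2 and 3, against 2.78, 2.84 and 1.61 RPKM for *Clock* and *Arntl* together. The ratio on the log2 scale was 3.08, 2.91 and 3.52, a mean of 3.17 ± 0.317 (SD, n = 3), or 9.0-fold. Most of the repressor sum was *Cry1* and *Cry2*, with 68.0%, 66.5% and 62.7%. In the ROR loop, *Nr1d1* and *Nr1d2* together were at 2.86, 2.18 and 1.58 RPKM, so that *Rora* was lower than its competitors in every library by log2 ratios of -3.75, -3.88 and -3.04 (mean -3.56 ± 0.453, SD, n = 3, or 11.8-fold lower). Both ratios shrank per coding length, to 1.98 and -1.90, and kept their direction.

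Paralogues, and the partners *Clock* and *Arntl*, were unequal too. *Per1* exceeded *Per2* by 2.71, 2.57 and 4.14 on the log2 scale of RPKM, a mean of 3.14 ± 0.872 (SD, n = 3) or 8.82-fold. *Cry1* exceeded *Cry2* by 1.83, 1.55 and 0.864, a mean of 1.41 ± 0.497 or 2.67-fold. *Nr1d2* exceeded *Nr1d1* by 1.41 and 1.57 in replicates 1 and 2 and by only 0.153 in replicate 3, a mean of 1.05 ± 0.777. *Clock* and *Arntl*, which are partners rather than paralogues, were closest per exonic length, with differences of 0.958, 0.442 and 0.152. Every one of these pairs kept its direction in all 3 libraries per exonic length. The sizes depended on the length, except for *Per1* and *Per2* (8.26-fold per coding length and 10.6-fold per longest transcript). *Cry1* exceeded *Cry2* by 1.38-fold per coding length, in 2 of the 3 libraries, and by 1.85-fold per longest transcript. *Nr1d2* exceeded *Nr1d1* by 3.87-fold per coding length and 2.12-fold per longest transcript. *Clock* exceeded *Arntl* by 1.93-fold per coding length and by 1.07-fold, in 2 of the 3 libraries, per longest transcript.

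The 10 genes were then set against the 17115 genes whose counts averaged 10 or more. Of the 10, 7 differed between the libraries by more than counting noise, the exceptions being *Rora*, *Per1* and *Nr1d1*, and 81.5% of all genes did so. A range of 2-fold or more was reached by 3 (*Clock*, *Per2* and *Nr1d2*), against 34.8% of all genes. The share of clock genes was near the background in both counts. The biological coefficient of variation estimated by edgeR ran from 0.237 for *Per1* and 0.248 for *Cry2* to 0.400 for *Nr1d2* and 0.461 for *Per2*, and its median over the 10 genes, 0.338, was at the median of all genes, 0.339. *Rora* was at 0.374. edgeR draws each estimate towards that of genes of similar level, so these values are not each gene's own spread. The match of the medians follows in part from this. The SD of CPM as a share of the mean was 5.16% for *Per1*, 8.63% for *Cry2*, 17.7% for *Rora*, 41.6% for *Nr1d2* and 45.0% for *Per2*.

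The count of 2-fold ranges rested on single libraries. Without replicate 3, 6 of the 10 genes were beyond counting noise and none had a 2-fold range (48.8% and 7.24% of all genes). Without replicate 1, 8 were beyond noise and 1 (*Per2*) had a 2-fold range (71.2% and 18.3%). Without replicate 2, the counts were 7 and 3 (77.7% and 31.2%).

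The low library was replicate 3 for 6 of the 10 genes (*Clock*, *Arntl*, *Per2*, *Per3*, *Cry1* and *Nr1d2*), replicate 2 for 3 (*Rora*, *Nr1d1* and *Per1*) and replicate 1 for *Cry2* alone. Among all genes the lowest library was replicate 3 for 45.6%, replicate 2 for 15.1% and replicate 1 for 39.3%. Replicate 1 was highest for 6 of the 10, against 39.6% of all genes. The neuron markers were also highest in replicate 1 and the pigment cell markers in replicate 3, with the sums given above, and their part in the clock gene values was not tested.

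Exonic length moved with the difference between replicate 3 and the others, and was therefore set beside each gene. Over 20 classes of equal size, the median log2(CPM + 1) ratio of replicate 3 to the mean of replicates 1 and 2 ran from 0.42 in the shortest class to -0.57 in the longest. *Clock* and *Rora* both belong to the longest class, yet *Clock* was at -0.97 and *Rora* at 0.08, so that they differed from the class median by -0.40 and 0.65. *Arntl* at -0.42 and *Per3* at -0.46 were near their class medians of -0.35 and -0.50. *Per2* at -1.04, *Nr1d2* at -0.99 and *Cry1* at -0.60 remained low against genes of like length, by -0.83, -0.80 and -0.64. *Cry2* at 0.20 and *Per1* at 0.12 lay over theirs by 0.50 and 0.31.

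The median ratio of the 10 genes in replicate 3 was -0.44, with -0.02 for all genes, and was -0.016 after the class median was taken from each gene. With a smooth trend on both exonic length and GC content removed, added once the data had been seen, the median was -0.21. Of the 10 genes, 6 were below 0 uncorrected, 5 after centring and 8 with the trend removed. Centring places about as many of all genes below 0 as above it by construction. The share of all genes below 0 is not given for the other settings, so these counts are not read as a result about the clock genes. With the trend removed, *Rora* was at 0.71 and *Cry2* at 0.19, while *Per2*, *Cry1* and *Nr1d2* were at -1.03, -0.71 and -0.55. *Per1* moved from 0.12 to -0.10 and *Nr1d1* from 0.13 to -0.23, so the direction of these small differences depended on the correction.

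**Figure D3:**
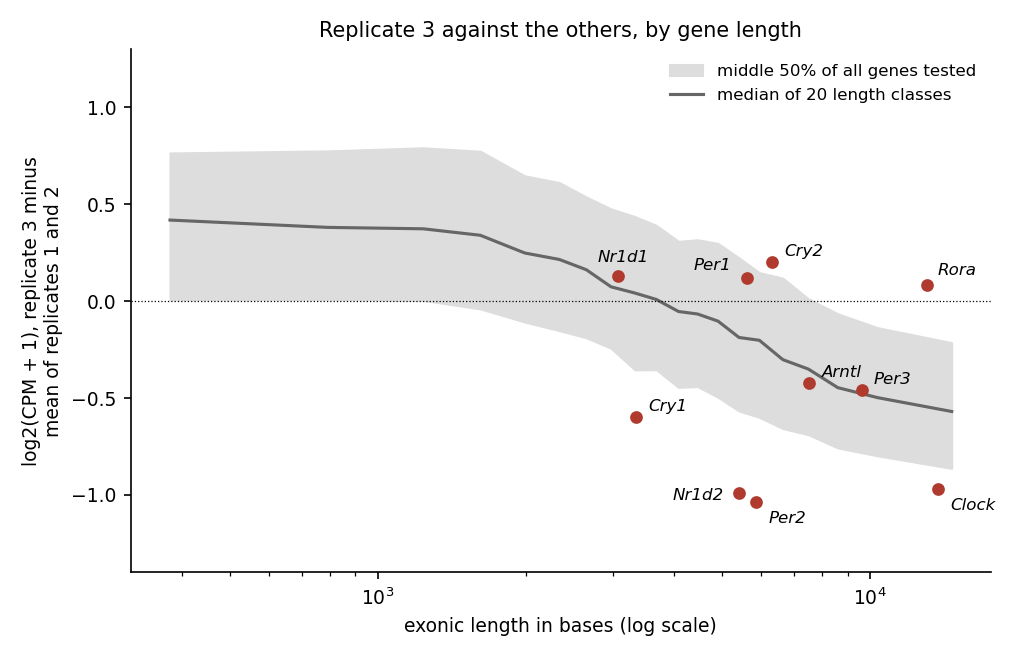
Log2(CPM + 1) ratio of replicate 3 to the mean of replicates 1 and 2 (vertical axis) against exonic length in bases (log scale) for the 10 clock genes (points), with the median of 20 length classes (line) and the middle 50% of all genes tested (grey band). The line falls from 0.42 to -0.57, *Per2*, *Nr1d2* and *Cry1* differ from it by -0.83, -0.80 and -0.64, and *Rora* by 0.65.

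Further genes of the pathway were taken from a list of 30, of which 27 reached 10 counts in each library and 28 entered the test. Beyond counting noise were 23 of the 28, and 8 had a range of 2-fold or more, again near the 81.5% and 34.8% of all genes. The 8 became 3 without replicate 1, 7 without replicate 2 and 1 without replicate 3, while the share of all genes became 18.3%, 31.2% and 7.24%. In replicate 3, 14 of the 28 were lower and 14 higher than in the other libraries, with a median log2 ratio of 0.0019, and the median was 0.21 after the class median of exonic length was taken from each gene.

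The paralogues were scarce or steady. *Rorb*, the ROR gene of retina and brain, had 8, 61 and 36 counts (0.207, 1.71 and 0.956 CPM) and was lowest in replicate 1, where the eye and forebrain markers were also lowest (chi-square adjusted p = 3.76e-10). The part of those markers in *Rorb* was not tested. *Npas2*, which can stand in for *Clock* in forebrain, had 8, 4 and 3 counts. *Arntl2*, the paralogue of *Arntl*, was at 3.55, 3.40 and 3.56 CPM, with no difference beyond counting noise (adjusted p = 0.927).

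Of the D-box factors, *Dbp*, an output activator of the clock, was at 5.29, 4.27 and 9.19 CPM and highest in replicate 3 (chi-square adjusted p = 1.28e-17). Its call was lost without replicate 3 (chi-square adjusted p = 0.0864). *Tef* was at 30.3, 26.4 and 25.3 CPM. *Nfil3*, which represses at the same D-boxes, was at 22.4, 27.1 and 32.7 CPM and also highest in replicate 3 (adjusted p = 3.20e-16). The repressors *Bhlhe40* and *Bhlhe41*, which compete for E-boxes, were low and highest in replicate 3, at 1.42, 2.30 and 4.25 CPM and at 0.933, 0.955 and 2.84 CPM. *Cipc*, a CLOCK inhibitor, was lowest there, at 51.7, 51.6 and 40.1 CPM.

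The kinases, ubiquitin ligases and a deubiquitinase that set the stability of PER and CRY spanned a wide range of levels. All 9 on the list were beyond counting noise, as were 81.5% of all genes, and 1 of the 9, *Fbxl21*, had a 2-fold range (34.8% of all genes), at 0.570, 0.843 and 1.33 CPM. *Csnk1d* (249, 239 and 265 CPM) and *Csnk1e* (155, 163 and 165 CPM), the casein kinases that phosphorylate PER, varied little. Among 7 coregulators, *Ncor1*, *Ep300* and *Sirt1* had ranges of 2-fold or more (34.8% of all genes did) with replicate 3 lowest. *Ncor1* and *Ep300*, with 12811 and 14273 exonic bases, belong to the longest class, whose median log2 ratio in replicate 3 was -0.57. Exonic length was not taken out here. *Crebbp*, with 13540 exonic bases, was at 70.2, 68.9 and 66.6 CPM. *Ncor1*, through which REV-ERB represses, was lowest in replicate 3, at 162, 133 and 76.0 CPM. *Hdac3*, its partner, was highest there, at 132, 140 and 184 CPM. *Timeless* and *Tipin*, partners in replication fork protection, were at 144, 165 and 152 CPM and between 91.0 and 100.3 CPM.

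**Figure D4:**
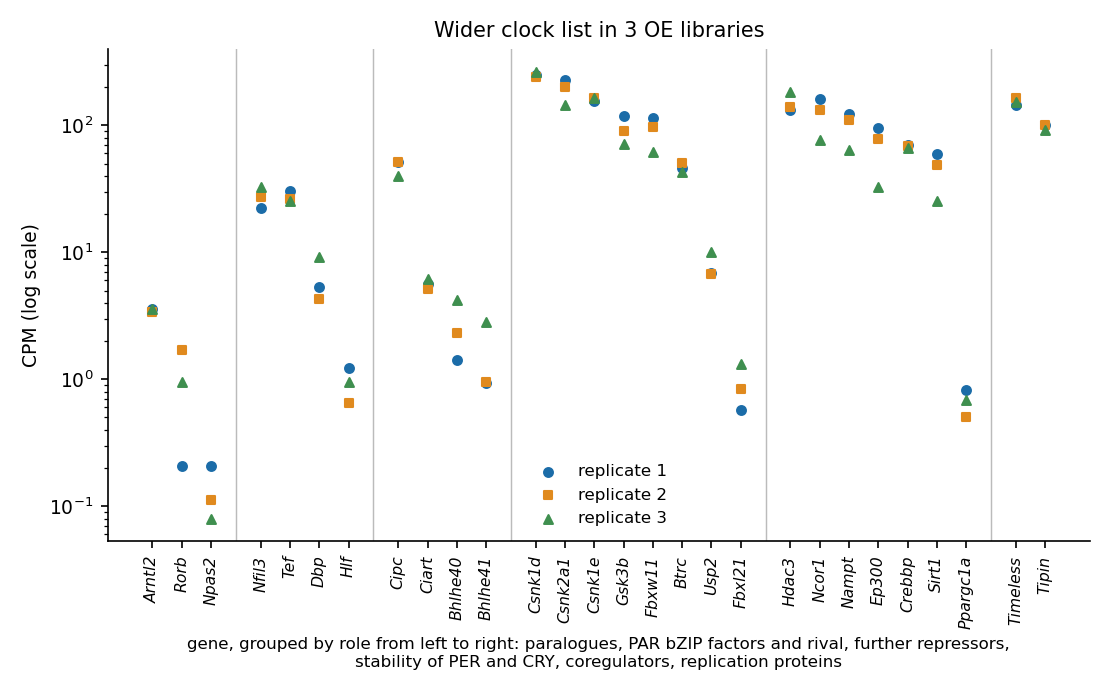
CPM (log scale) of the further clock pathway genes reported here in the 3 OE libraries, grouped by role, with 1 marker shape per replicate. The kinases *Csnk1d* and *Csnk1e* lie at 155 CPM or more, *Rorb* and *Npas2* are among the lowest, and *Ncor1*, *Ep300* and *Sirt1* are lowest in replicate 3.

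Among the clock genes and the list of 30, the genes nearest to *Rora* by Euclidean distance of centred log2(CPM + 1) over the 3 libraries were *Nr1d1* (0.0409), *Hlf* (0.0627) and *Ppargc1a* (0.0719). *Hlf*, a D-box factor, was at 1.22, 0.646 and 0.956 CPM (47, 23 and 36 counts). *Ppargc1a*, a coactivator of ROR proteins, was at 0.829, 0.506 and 0.690 CPM (32, 18 and 26 counts). The added 1 CPM flattens genes this low and draws them together. Highest over lowest CPM was 1.43 for *Rora*, 1.43 for *Nr1d1*, 1.89 for *Hlf* and 1.64 for *Ppargc1a*. These 4 genes were lowest in replicate 2, and none differed between libraries by more than counting noise (chi-square adjusted p = 0.0751, 0.0868, 0.0503 and 0.265), so that their likeness rests on 3 points. Without replicate 3, which sets replicate 1 against replicate 2 alone, *Hlf* and *Rora* passed (adjusted p = 0.0254 and 0.0416).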

How the data were processed

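Poly-A RNA of 3 OE maxillary process samples was sequenced, and the authors deposited 1 table of raw, unnormalized read counts per gene for every library. The submitters' processing notes name FastQC, STAR 2.7.3a, HTSeq 0.12.4 and the mm10 genome. The annotation release and the strand setting are not given in the sources used here. Rows that name no gene (14.2%, 15.7% and 16.4% of the counted reads in replicates 1, 2 and 3) were left out of library sizes.

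Of 55401 identifiers, 55141 matched GENCODE M21 (GRCm38) without version and 260 did not. Symbols, coordinates, exonic and coding lengths came from GENCODE M21 and promoter windows from RefSeq (GRCm38.p6). CPM used edgeR 4.0.16 with TMM factors of 1.06, 1.01 and 0.940. RPKM divides CPM by exonic kilobases. Differences beyond counting noise were sought in each gene by a chi-square test of its 3 counts against scaled library sizes (2 degrees of freedom), with Benjamini-Hochberg adjustment over the 17115 genes averaging 10 counts or more, and calls at 0.05. The test was run on simulated data first. The biological coefficient of variation came from an intercept-only edgeR model. Ratios used log2(CPM + 1), which understates changes of low genes.

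The 10 genes, the list of 30 and the marker lists were chosen with earlier results of these data known. Genes named are the 10, the list, the markers, *Dlx2*, the 3 nearest to *Rora*, and genes sharing exonic bases with the 10. *Xist*, outside this rule, was named after its values were seen. Some genes of the list entered its counts and are not reported here by name. Alternatives were DESeq2 1.42.0 size factors, scaling by total counts, other count filters and pseudocounts, other gene lengths, length centring, a smooth trend on length and GC content (mgcv 1.9.3, added after the data were seen) and leaving out each library. Further software was matplotlib 3.10.9, pandas 2.3.3, scipy 1.17.1 and numpy 2.4.6 under Python 3.11.15, with R 4.3.3.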

Additional observations from a re-analysis of the deposited data

How the results depend on the processing

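Of 285 values recomputed under alternatives for 46 results, 246 kept their direction and their side of the threshold or stayed within the spread, 32 moved further, and 3 lost and 4 gained a call. Some of the 246 could hardly have moved. Ratios between genes within a library do not change with scaling. Count filters that kept all 10 genes left their ranges and ratios as they were. Leaving out 1 of 3 libraries moves a mean level by less than its SD, the limit used here. The 246 is therefore not a measure of robustness. The median ratio of the 10 genes in replicate 2, 0.05, was 0.39 without replicate 1 and turned to -0.20 without replicate 3 and to -0.0051 when centred on length classes, shifts within the spread between libraries. *Rora* was at 1.54 RPKM and in place 8 per coding length and at 0.222 RPKM per longest transcript. The log2 ratio of repressors to activators was 1.98 per coding length and 2.80 per longest transcript, and that of *Rora* to *Nr1d1* and *Nr1d2* was -1.90 per coding length. Centred on length classes, the median ratio of the 10 genes in replicate 3 was -0.016. Leaving out 1 library at a time, 0 to 3 of the 10 genes had a 2-fold range (1 without replicate 1, 0 without replicate 3), and their median coefficient of variation ran from 0.234 to 0.473. The causes were not tested. No paired analysis was possible because the libraries form 1 group. *Rora* and *Nr1d1* rest on 60 to 107 counts a library, where a 1.43-fold range did not exceed counting noise.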
